A study of Mus musculus with 8 samples.

Results

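The genes described here are 35 genes of the unfolded protein response and of protein folding in the endoplasmic reticulum (ER), taken by symbol from a count table of 55487 mouse genes. All 35 were found and all had enough reads to be tested, among 23190 genes tested. By their labels, the libraries came from germ cells sorted by fluorescence from fetal testes of C57BL/6 mice. Of these, 4 were labelled WT and came from controls of the same litters, which carried the Oct4-eGFP reporter on both alleles (Oct4-eGFP+/+). The other 4 were labelled KO and came from Rhox10-null mice that were also Oct4-eGFP+/+. The reporter places a green fluorescent protein under control of Oct4 (Pou5f1), a gene of pluripotent and germ cells. Fetal age, and whether each library stands for an animal of its own, are not given in the sources used here; p-values thus measure the spread of these samples, which may be technical. Libraries held 16346977 to 20311338 counts. Levels are CPM (counts scaled to the library size, with TMM factors), or, where genes are compared with each other, RPKM, which divides the same CPM values by the length of the gene model in kilobases.

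Secreted and membrane proteins fold in the ER with the help of chaperones, lectins that hold glycoproteins, and enzymes that form disulphide bonds. When unfolded protein accumulates, the sensors IRE1 (Ern1), PERK (Eif2ak3) and ATF6 act through the transcription factors XBP1, ATF4 and cleaved ATF6, which raise genes of folding, of ER-associated degradation and of amino acid supply. Clgn encodes calmegin, a homolog of calnexin that is made in male germ cells and is needed there for the folding of sperm surface proteins. Splicing of Xbp1, phosphorylation and cleavage of the sensors are not seen in counts per gene, so that what follows concerns RNA levels alone.

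Rhox10, the gene named in the genotype, had 1.08 ± 0.117 CPM in the WT libraries and 0.882 ± 0.220 CPM in the KO libraries (SD, n = 4 each; log2 fold change -0.28, edgeR adjusted p = 0.767). The extent of the null allele is not given in the sources used here. WT and KO therefore name the labels throughout. The germ-cell markers were read in every library, with Ddx4 at 14.8 RPKM in WT, but markers of other testis cells were higher. Summed over each list, 10 germ-cell markers reached 169 to 187 CPM in WT and 160.3 to 175 in KO, 8 Sertoli markers 568 to 596 and 555 to 578, 6 Leydig markers 3051 to 3082 and 2771 to 2809, and 7 stromal markers 8021 to 8117 and 7797 to 8025. The libraries thus held RNA of cells other than germ cells, and a level of an ER gene, which all these cells use, is a level in the mixture. Of the lists, Leydig markers were lower with the KO label without overlap (5 of 6 fell). So were 8 erythroid markers (225 to 239 against 94.0 to 98.7 CPM, 5 fell) and 8 leukocyte markers (26.1 to 28.5 against 19.5 to 24.1, 1 of the 4 tested fell). The 7 muscle markers were also lower without overlap (247 to 251 against 167 to 177, 3 of the 5 tested fell and 1 rose). In the muscle list, Ttn alone had a mean of 125 CPM in WT and 57.5 in KO. Markers of duct and tubule epithelium were higher (64.9 to 71.6 against 112.5 to 127, 10 of 10 rose), as were 7 endothelial markers (183 to 197 against 208 to 215, 2 rose). In bulk RNA, fewer cells of a type and less RNA per cell cannot be told apart.

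**Figure D1:**
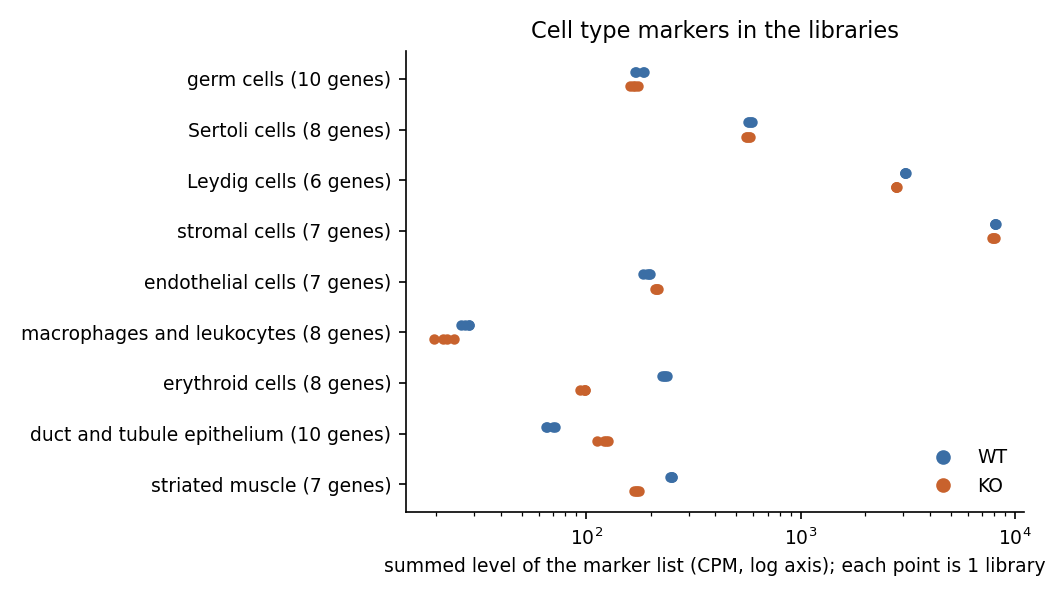
Summed level of each marker list (CPM, log axis) in each of the 8 libraries, WT in blue and KO in orange. Stromal and Leydig lists lie above the germ-cell list, and the groups separate for Leydig, endothelial, leukocyte, erythroid, epithelial and muscle markers.

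Many genes of this response share the ER stress response element (ERSE), the sequence through which ATF6 and XBP1 act: CCAAT, then 9 bases of any kind, then CCACG. It was searched on both strands in the 250 bases before each RefSeq start (build GRCm38.p6), together with ERSE-II (ATTGG, 1 base, CCACG), the core TGACGTG bound by ATF6 and XBP1, and the ATF4 site TGATGNAA. Windows were given for 30 of the 35 genes (not for Atf6, Hyou1, Manf, Clgn and Derl1). ERSE stood in 8 of these 30 (26.7%), against 35 of 27025 genes with a window (0.130%); ERSE was defined on promoters of this family, so this share is no independent result. The 8 were Hspa5, Hsp90b1, Calr, Canx, Creld2, Dnajc3, Pdia6 and Syvn1. ERSE-II was found at Herpud1 alone (0.0370% of all genes), TGACGTG at Hspa5 alone (1.85%), and the ATF4 site at Asns, Chac1 and Herpud1 (3.91%).

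The windows of Hspa5, Calr and Creld2 are shown because these ERSE genes were lower with the KO label (below), and that of Canx because it holds the same element and was not. Capitals mark ERSE on either strand and, at Hspa5, also TGACGTG; each sequence is read from 5′ to 3′ in the direction of transcription and ends at the base before the RefSeq start. They lie at chr2:34771840-34772089, plus strand (Hspa5), chr8:84846932-84847181, minus strand (Calr), chr15:88819396-88819645, plus strand (Creld2) and chr11:50325674-50325923, minus strand (Canx).
Hspa5: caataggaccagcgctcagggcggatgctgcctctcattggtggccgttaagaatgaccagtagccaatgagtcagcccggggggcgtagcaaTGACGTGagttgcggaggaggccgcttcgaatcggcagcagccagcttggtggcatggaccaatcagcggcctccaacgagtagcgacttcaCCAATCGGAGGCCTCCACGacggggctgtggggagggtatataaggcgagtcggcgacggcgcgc
Calr: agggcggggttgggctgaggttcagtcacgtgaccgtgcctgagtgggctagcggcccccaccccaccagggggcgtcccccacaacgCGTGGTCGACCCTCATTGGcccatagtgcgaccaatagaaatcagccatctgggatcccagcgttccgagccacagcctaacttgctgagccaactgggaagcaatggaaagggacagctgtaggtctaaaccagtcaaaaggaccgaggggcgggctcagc
Creld2: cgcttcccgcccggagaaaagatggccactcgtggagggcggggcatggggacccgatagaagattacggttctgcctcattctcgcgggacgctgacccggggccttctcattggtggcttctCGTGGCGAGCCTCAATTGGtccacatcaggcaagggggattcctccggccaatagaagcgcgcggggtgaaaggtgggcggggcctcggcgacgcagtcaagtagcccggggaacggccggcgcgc
Canx: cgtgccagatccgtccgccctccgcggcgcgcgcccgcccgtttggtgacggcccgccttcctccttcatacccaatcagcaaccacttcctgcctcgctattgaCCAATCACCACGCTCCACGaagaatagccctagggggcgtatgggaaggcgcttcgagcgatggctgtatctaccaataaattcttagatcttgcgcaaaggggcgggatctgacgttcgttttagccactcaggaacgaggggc

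The element ran from 65 to 47 bases before the start at Hspa5 and from 145 to 127 at Canx, on the strand of the gene, and from 162 to 144 at Calr and 126 to 108 at Creld2, on the other strand. A match is only a match of letters; binding was not measured. Of the 5 genes with a window that fell, 3 held ERSE, and of the 25 that were not called, 5 did. Clgn, which also fell, had no window, and a link of ERSE with the falls was not tested. Hsp90b1 held 2 copies and was not called.

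The levels in the WT libraries spanned a wide range. The most abundant RNA was that of Calr, the calcium-binding lectin calreticulin, at 186 ± 4.01 RPKM (SD, n = 4), followed by the ER HSP90 gene Hsp90b1 at 155 ± 2.56 and Hspa5, the HSP70 chaperone BiP, at 84.5 ± 1.37. The disulphide isomerase genes P4hb (79.4 ± 1.03 RPKM), Pdia4 (72.0 ± 4.35) and Pdia3 (65.04 ± 1.35) came next, then Canx, calnexin, at 62.8 ± 1.48. Atf4 (54.01 ± 0.511) completed the 8 genes above 50 RPKM. A further 8 lay between 10 and 50 RPKM and 15 between 2 and 10, among the latter Xbp1, Ddit3, Eif2ak3 and Atf6. Under 2 RPKM were Clgn (1.63 ± 0.130), Sdf2l1, Trib3 and Chac1. Of the 34 neighbouring pairs in this order, 16 overlapped between the WT libraries, for example Pdia3 with Canx, Ppp1r15a with Pdia6, and Atf6 with Sesn2. Replicates lay close together: for the 31 genes of at least 10 CPM the median coefficient of variation in WT was 4.16% and the largest 9.01%.

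**Figure D2:**
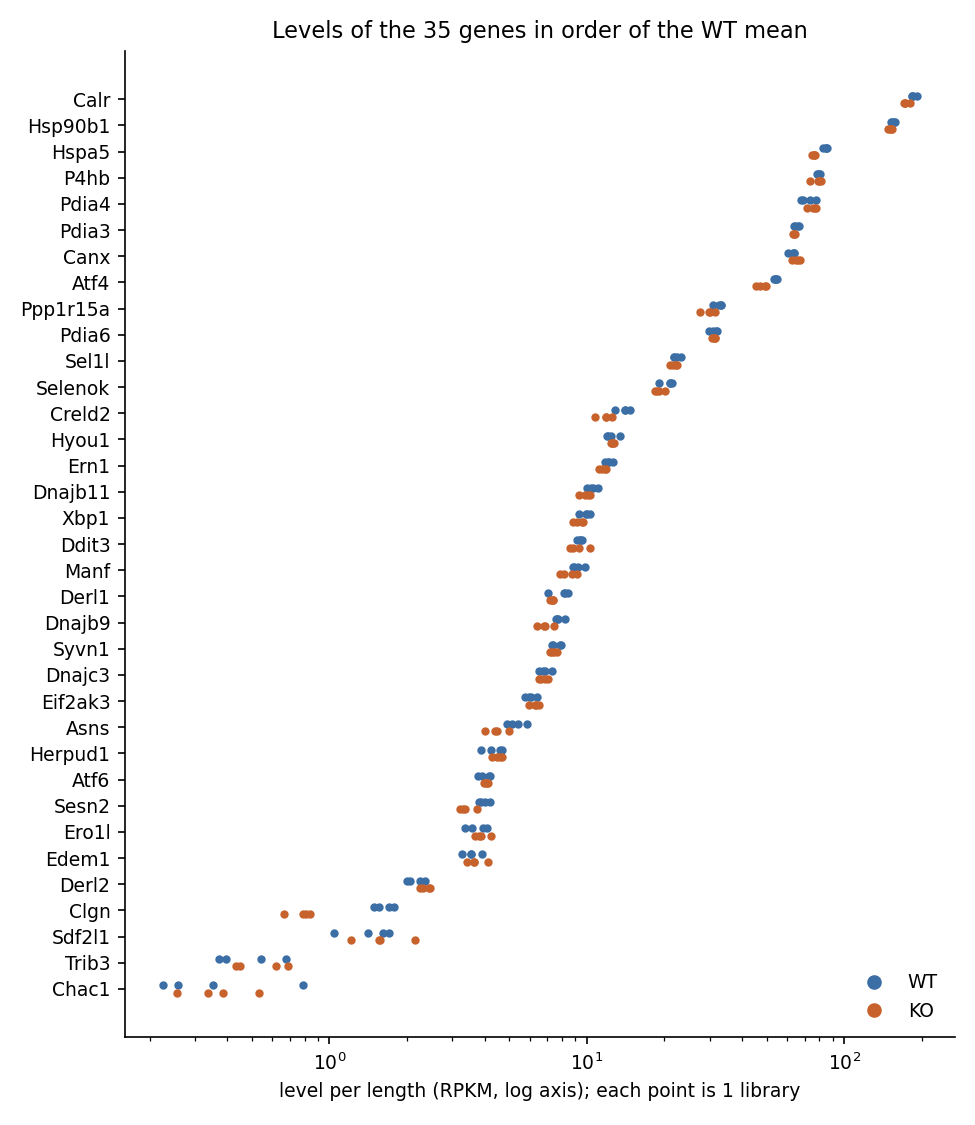
Level per length (RPKM, log axis) of each of the 35 genes in each library, ordered by the WT mean, WT in blue and KO in orange. Calr and Hsp90b1 are the most abundant and Trib3 and Chac1 the least, and Clgn is the gene whose groups lie farthest apart.

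The comparison asked whether RNA of ER folding and stress genes differs between the libraries labelled KO and WT. With the KO label 6 of the 35 fell and none rose: Clgn, Hspa5, Calr, Atf4, Ppp1r15a and Creld2. Clgn fell by 52.2%. The other falls were small: Calr fell by 6.29%, Ppp1r15a fell by 8.17%, Hspa5 fell by 9.87%, Atf4 fell by 11.8% and Creld2 fell by 15.9%. The 6 are 17.1% of the 35. These were chosen with earlier results of these data known, so this percentage is no independent result. Of the 115 further genes of the same processes that were tested (below), 0.870% were called. Over all genes tested 5.14% were called (edgeR's quasi-likelihood test, adjusted p under 0.05), 2.80% lower and 2.35% higher (649 and 544 genes, or 836 and 426 with library totals alone). Among the 6636 genes within the middle range of abundance of the 35, from their lower to their upper quartile, it was 7.22%, with 4.70% lower. Of the genes that fell, Ppp1r15a alone lay within this range. Hspa5, Calr and Atf4 lay above it and Clgn and Creld2 below it, so this share is not matched to them in abundance. No gene of the 35 was called higher by edgeR, by DESeq2 or by limma voom, and 2 higher genes (Canx and Pdia4) had an unadjusted p under 0.05, as did 11 lower ones; over all genes tested 15.6% did, 1872 lower and 1746 higher. The median log2 fold change of the 35 was -0.04, with 23 below 0 and 12 above, and that of all genes tested 0.002. Together the 35 took 0.359 to 0.365% of the counts in WT and 0.343 to 0.348% in KO, and these ranges did not overlap. The most abundant genes weigh most in this sum. Among them, mean CPM in WT and KO was 357 and 322 for Hspa5 and 534 and 501 for Calr. The means of Canx (295 and 306) and Pdia4 (173 and 181) were higher in KO, without a call. The mitochondrial share of the counts also differed without overlap, at 15.31 to 15.7% in WT and 15.72 to 16.79% in KO, and its part in the lower share of the 35 was not tested. Taken singly, 7 of the 35 genes had groups that did not overlap, all lower in KO, against 9.44% of all genes tested (4.72% lower). A model that tests against a fold of 1.2 called 1 of the 35, Clgn, and so did a model with the mean level of the non-germ markers as a covariate. These models called far fewer genes in the whole table too, 134 and 181 of the 23190 tested.

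**Figure D3:**
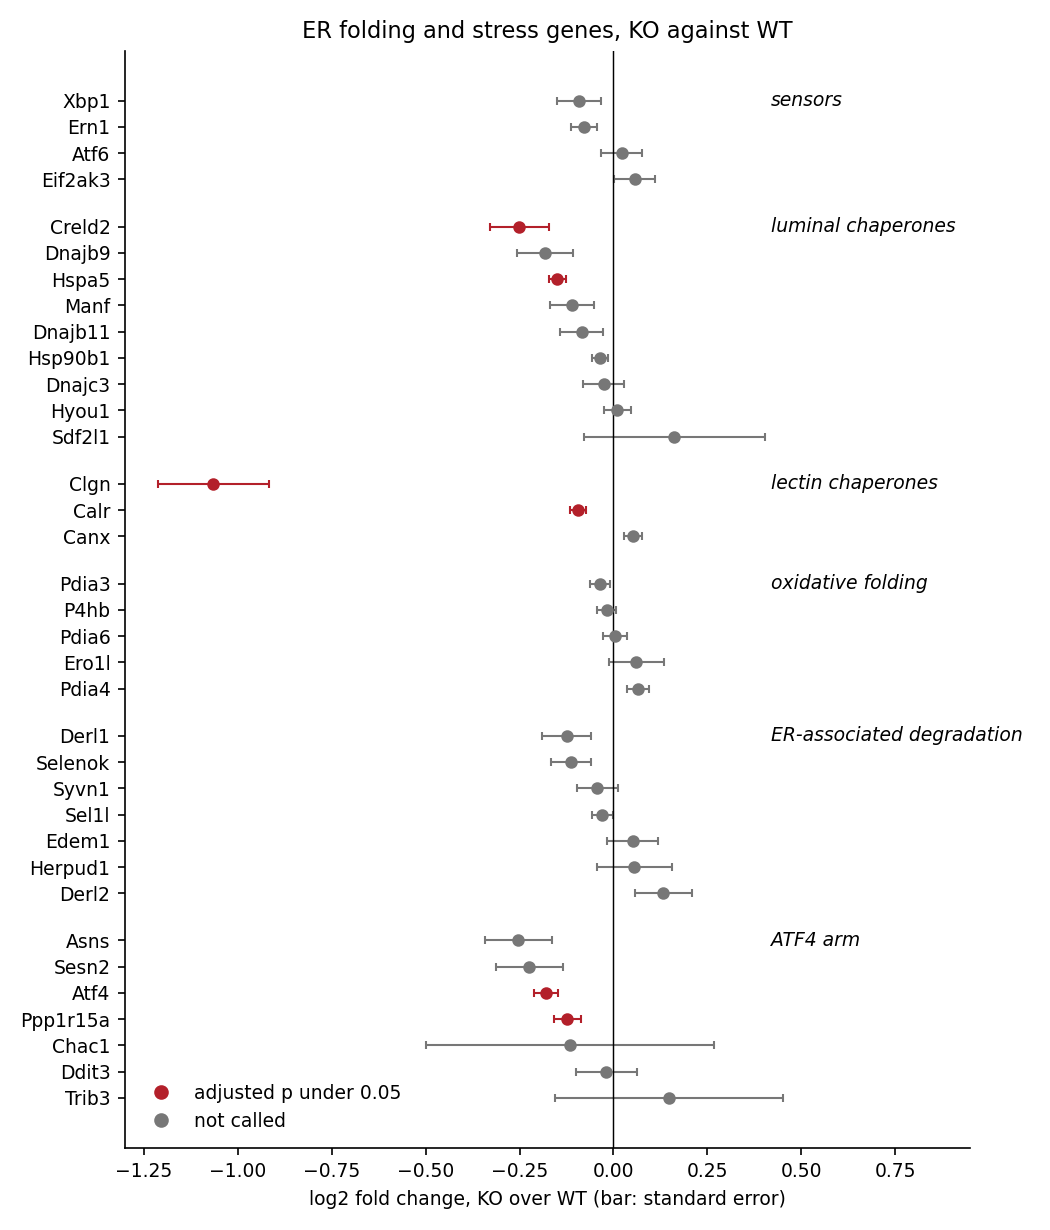
Log2 fold change, KO over WT, of the 35 genes by role, with the standard error as a bar; red marks adjusted p under 0.05. Clgn stands far to the left, at -1.06, the 5 other called genes lie between -0.25 and -0.09, and no gene to the right of 0 is called.

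The lectin chaperones hold glycoproteins during folding, and their 3 genes differed from each other. Clgn (ENSMUSG00000002190, chromosome 8, 83389867 to 83428552, plus strand, GRCm38) had 7.16, 6.84, 6.26 and 6.02 CPM in WT replicates 1 to 4 and 3.18, 2.69, 3.26 and 3.38 in KO replicates 1 to 4, from 104 to 138 and 45 to 66 counts. Every KO library was below every WT library. Its log2 fold change was -1.06 with a standard error of 0.147 (edgeR adjusted p = 1.10e-09). Calr (ENSMUSG00000003814, chromosome 8, 84841850 to 84846934, minus strand) had 531, 526, 551 and 528 CPM in WT and 493, 497, 519 and 493 in KO. Its groups were also apart, by far less: log2 fold change -0.09 (standard error 0.021, edgeR adjusted p = 0.000723). Canx (ENSMUSG00000020368) had 285, 299.8, 299 and 295 CPM in WT and 306, 315, 309 and 293 in KO, so that the groups overlapped (log2 fold change 0.05, standard error 0.024, adjusted p = 0.240). Calr and Canx encode the general pair of ER lectins, Clgn the germ-cell one.

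Within each library, Clgn can be set against its homolog Canx, which leaves library scaling out. The Canx level is one of the mixture of cells described above, so the ratio is not one within germ cells. Per length, Clgn RNA was 2.93, 2.66, 2.45 and 2.38% of Canx RNA in the WT libraries and 1.21, 0.997, 1.23 and 1.34% in the KO libraries. The mean log2 ratio of CPM was -5.47 ± 0.135 in WT and -6.57 ± 0.177 in KO (SD, n = 4), a difference of -1.10. Clgn was already known from earlier results of these data to be lower, so this difference is a description of the pair and is given with no test. The germ-cell marker Ddx4, by comparison, had a log2 fold change of -0.03 and was not called, while Tdrd1 and Piwil2 fell and Dazl and Dppa3 rose; the part of germ-cell number in the Clgn difference was not tested.

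**Figure D4:**
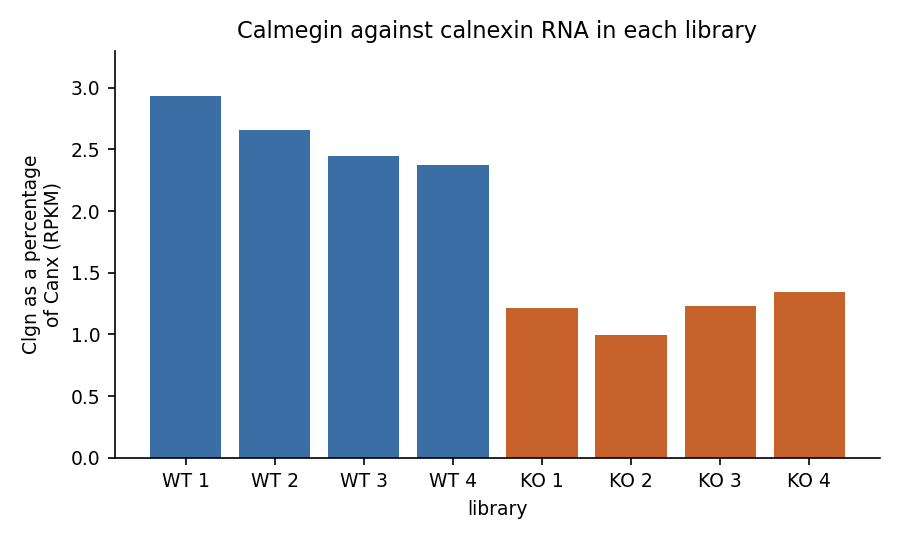
Clgn level as a percentage of the Canx level (RPKM) in each library. The 4 WT bars stand between 2.38 and 2.93% and the 4 KO bars between 0.997 and 1.34%.

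Of the 9 luminal chaperones and their partners, 2 fell, 7 were not called and none rose, beside 2.80% lower and 2.35% higher over all genes tested. Hspa5, whose product BiP binds unfolded chains and holds the sensors inactive (ENSMUSG00000026864, chromosome 2, 34771970 to 34777547, plus strand), had 358, 358, 349 and 363 CPM in WT and 325, 316, 323 and 324 in KO. The highest KO library lay under the lowest WT library. The difference was small against the level and large against the spread (log2 fold change -0.15, standard error 0.023, edgeR adjusted p = 5.69e-08). Creld2, which encodes a secreted ER stress-inducible protein with disulphide isomerase activity (ENSMUSG00000023272, chromosome 15, 88819646 to 88826683, plus strand), had 17.6, 20.02, 19.2 and 19.2 CPM in WT and 16.1, 16.2, 17.1 and 14.7 in KO. The highest KO library lay just under the lowest WT library (log2 fold change -0.25, standard error 0.078, edgeR adjusted p = 0.0327). The call of Creld2 was lost in 11 of 22 alternatives. Among them were leaving out WT replicate 2, 3 or 4, or KO replicate 1, 2 or 4 (edgeR adjusted p = 0.0534 to 0.172), and DESeq2 (0.117). Over all 22, which include the test against a fold of 1.2, the adjusted p ranged from 0.0191 to 1.

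The other luminal genes were not called. Dnajb9, a BiP co-chaperone gene that is a target of XBP1, had 19.3 to 20.99 CPM in WT and 16.3 to 18.9 in KO without overlap (log2 fold change -0.18, adjusted p = 0.164). Manf, a secreted BiP-binding factor, was at -0.11 on that scale, and the co-chaperone genes Dnajb11 and Dnajc3 at -0.08 and -0.03. Hsp90b1 had -0.04 (standard error 0.020), Hyou1, the nucleotide exchange factor of BiP, 0.01 (0.036), and Sdf2l1 0.16 (0.241, from 20 to 40 counts per library). Whether the change of Hspa5 differed from that of its partners Hyou1 and Hsp90b1 was not tested.

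**Figure D5:**
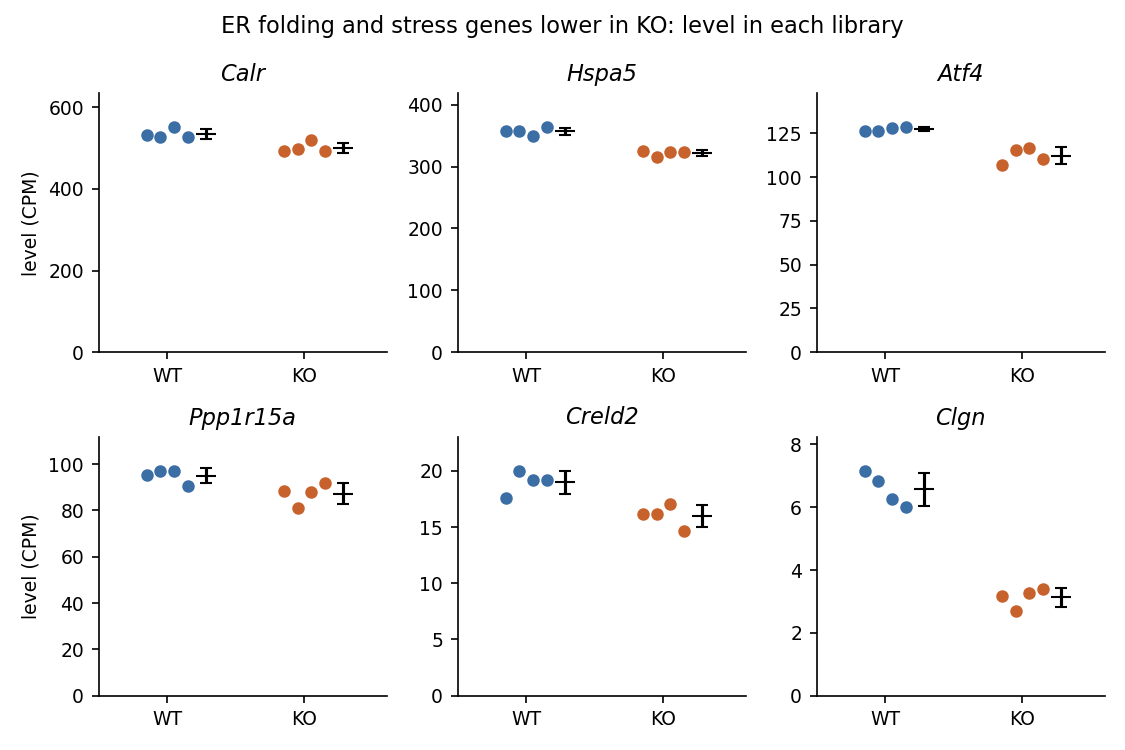
Level (CPM, axes from 0) of the 6 genes that fell, in each library, WT in blue and KO in orange, with the group mean and SD in black (n = 4). The groups of Ppp1r15a overlap and those of the other 5 do not.

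Among the 7 genes of the ATF4 arm, through which PERK and related kinases respond to stress and amino acid shortage, 2 fell and 5 were not called. Over all genes tested 2.80% were called lower and 2.35% higher, and of 21 genes in a wider ATF4 group (below) none was called. Atf4 (ENSMUSG00000042406, chromosome 15, 80255184 to 80257541, plus strand) had 126, 126.5, 128 and 129 CPM in WT and 107, 116, 117 and 110.3 in KO, with no overlap. The log2 fold change was -0.18 (standard error 0.032, edgeR adjusted p = 6.18e-06). Ppp1r15a, which encodes GADD34, the phosphatase subunit that reverses the phosphorylation of eIF2α (ENSMUSG00000040435, chromosome 7, 45522916 to 45526268, minus strand), had 95.5, 97.1, 97.2 and 90.6 CPM in WT and 88.6, 80.8, 87.8 and 91.9 in KO. KO replicate 4 lay above WT replicate 4, so the groups overlapped. Its log2 fold change was -0.12 (standard error 0.036, edgeR adjusted p = 0.0212). The call ended when WT replicate 2 or 3, or KO replicate 2, was left out (edgeR adjusted p = 0.0850 to 0.239) and with DESeq2 (0.102). Over 22 alternatives, which include the test against a fold of 1.2, the adjusted p ranged from 0.00673 to 1. An exon of Ppp1r15a overlaps the antisense gene Tulp2, which had 2264 counts in WT and 2144 in KO against 6959 and 6268 for Ppp1r15a, and whether counting used strand is not given in the sources used here.

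Besides Atf4 and Ppp1r15a, the other 5 genes of the ATF4 arm were not called. Asns, the asparagine synthetase gene, had 14.02, 14.7, 15.9 and 13.4 CPM in WT and 11.98, 12.2, 13.6 and 10.97 in KO (log2 fold change -0.25, edgeR adjusted p = 0.0753). It was called without KO replicate 3 (log2 fold change -0.31, edgeR adjusted p = 0.0420) and with library totals alone (0.0489). Sesn2, the stress-induced sestrin gene, had 13.2 to 14.6 CPM in WT and 11.2 to 13.03 in KO without overlap (-0.22, adjusted p = 0.149). Ddit3, which encodes the stress factor CHOP, had 16.1, 16.4, 15.6 and 16.1 CPM in WT and 14.7, 17.6, 15.2 and 15.9 in KO, with the KO range around the WT range (-0.02, standard error 0.081, adjusted p = 0.947). Ddit3 overlaps the antisense gene Mars, which had 3000 counts in WT. Trib3, a pseudokinase gene induced by CHOP, and Chac1, a glutathione-degrading enzyme gene, had 16 to 25 and 7 to 26 counts per library, and standard errors of 0.303 and 0.384, so that a difference of the size seen for Atf4 was not detectable in them.

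Of the sensors and Xbp1, none of 4 was called by edgeR, DESeq2 or limma voom. An unadjusted p under 0.05 was found for 1, Ern1, and for 15.6% of all genes tested. Ern1, the IRE1 kinase and nuclease gene, had 98.4, 96.05, 99.9 and 103.5 CPM in WT and 93.1, 96.1, 91.0 and 96.7 in KO (log2 fold change -0.08, standard error 0.035, edgeR adjusted p = 0.232). The highest KO libraries, replicates 2 and 4, lay just above WT replicate 2, so the ranges overlapped. Xbp1, the factor whose messenger IRE1 splices, had 32.6, 32.2, 30.3 and 33.5 CPM in WT and 29.8, 31.0, 31.2 and 28.6 in KO (-0.09, adjusted p = 0.486). Eif2ak3 had 34.5, 35.7, 36.5 and 38.6 CPM in WT and 38.2, 35.9, 39.3 and 37.8 in KO (0.06, adjusted p = 0.699), and Atf6 38.7, 34.7, 38.4 and 36.03 against 37.3, 38.01, 36.9 and 37.8 (0.02, adjusted p = 0.909). For all 4 genes the groups overlapped.

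Of the 5 genes of oxidative folding, edgeR, DESeq2 and limma voom called none. Pdia4 had an unadjusted p under 0.05, 1 of the 5, beside 15.6% of all genes tested. The isomerase genes Pdia3, Pdia6 and P4hb had log2 fold changes of -0.03, 0.004 and -0.02 with standard errors of 0.026 to 0.032, and Ero1l, the ER oxidase that recharges them, had 0.06 (0.073). Pdia4 had 163, 186, 176 and 166 CPM in WT and 171, 184, 187 and 181 in KO (log2 fold change 0.07, edgeR adjusted p = 0.230). Without WT replicate 2 it was called higher (0.10, edgeR adjusted p = 0.0281). The standard errors of Pdia3, Pdia4, Pdia6 and P4hb were 0.026, 0.029, 0.032 and 0.026, all above that of Hspa5 (0.023).

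Of the 7 genes of ER-associated degradation, which pulls misfolded proteins back to the cytosol, none was called by edgeR, DESeq2 or limma voom. Only 1, Selenok, had an unadjusted p under 0.05, beside 15.6% of all genes tested. The genes of the ubiquitin ligase complex, Syvn1 (HRD1), its partner Sel1l and the stress-inducible Herpud1, had log2 fold changes of -0.04, -0.03 and 0.06, and Edem1, a mannosidase-like gene, had 0.05. The channel-like Derlin genes pointed in opposite directions without a call: Derl1 at -0.12 (standard error 0.065) and Derl2 at 0.13 (0.076). Selenok, a selenoprotein gene, had -0.11 (edgeR adjusted p = 0.270). Its value is uncertain, since 6 copies named as Selenok pseudogenes had 4483 counts in WT against 2852 for Selenok itself, and reads may be shared between them. Derl2 and Syvn1 overlap the antisense genes Mis12 and Mrpl49, and Manf overlaps Dcaf1 and Rbm15b.

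Leydig cell genes also differed in the same libraries. The steroidogenic genes Cyp11a1, Cyp17a1, Hsd3b1 and Star had log2 fold changes of -0.15, -0.14, -0.12 and -0.12 (edgeR adjusted p from 7.51e-12 to 1.91e-05), beside -0.15 for Hspa5, -0.18 for Atf4, -0.09 for Calr, -0.12 for Ppp1r15a and -0.25 for Creld2. Of the other Leydig markers, Nr5a1, a steroidogenic transcription factor gene, fell (-0.12, edgeR adjusted p = 0.000345), and Insl3, a Leydig hormone gene, was not called (0.04, edgeR adjusted p = 0.910), with groups that overlapped. Stromal collagen genes were not called, with Col1a1 at -0.03. With the mean level of the non-germ markers as a covariate the calls of Hspa5 (log2 fold change -0.14, edgeR adjusted p = 0.0757), Atf4 (-0.19, 0.102), Calr (-0.11, 0.218), Creld2 (-0.42, 0.168) and Ppp1r15a (-0.16, 0.346) were lost while their fold changes stayed below 0, and Clgn kept its call (-1.11, 0.00640). Their ranges over all 22 alternatives had lowest adjusted p of 6.29e-10 for Hspa5, 8.67e-07 for Atf4, 6.43e-06 for Calr and 4.14e-10 for Clgn. The highest was 1 except for Clgn (0.00640). For Hspa5, Atf4 and Calr it came from the test against a fold of 1.2, which asks whether a change exceeds that fold. Of all genes tested, 181 were called with the non-germ marker covariate, against 1193 without it. The lists in this covariate moved in opposite directions, so it does not measure the share of any cell type, and the part of Leydig or other cells in these falls was not tested.

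A further 117 genes of the same processes were looked up. Of the 115 with enough reads, 1 fell, none rose and 114 were not called; DESeq2 and limma voom called the same gene, and 14 genes (3 higher and 11 lower) had an unadjusted p under 0.05 in edgeR, a smaller share than the 15.6% of all genes tested. The gene that fell was Rpn1, which encodes ribophorin I of the oligosaccharyltransferase complex (ENSMUSG00000030062), with 156.5, 151, 151 and 151 CPM in WT and 132, 144, 137 and 126 in KO. The groups did not overlap (log2 fold change -0.18, standard error 0.030, edgeR adjusted p = 1.29e-06), and the call was lost with the non-germ marker covariate and against a fold of 1.2. Called genes made up 0.870% of these 115, under the 5.14% of all genes tested, and their median log2 fold change was -0.03, with 75 below 0 and 40 above. In the translocon and glycosylation group 14 of 17 were below 0, with a median of -0.03, and 1 was called. Over all genes tested 11436 of 23190 were below 0. In the wider ATF4 group, with amino acid transporters and serine synthesis genes, none of 21 was called by edgeR, DESeq2 or limma voom, 4 had an unadjusted p under 0.05 and the median was -0.01. The testis-specific homologs of calreticulin and of the disulphide isomerases, Calr3 and Pdilt, had 6 to 41 and 0 to 3 counts per library; Calr3 was not called (log2 fold change 0.39, adjusted p = 0.568) and Pdilt was not tested.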

How the data were processed

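RNA-seq libraries labelled as sorted germ cells (SMARTer stranded pico kit, per the labels' protocols) were compared as 4 labelled KO against 4 labelled WT. The authors deposited 1 table of raw counts of reads per gene, with no normalization and with the length of each gene model. Per the submitters' processing notes, STAR 2.5.2b, Subread, featureCounts and DESeq2 were used with GRCm38; roles, strand setting and the treatment of reads with several positions are not given in the sources used here.

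Symbols came from GENCODE M21 (55141 of 55487 genes matched; all 35 genes had identical positions). A second entry named Ddit3 had 0 counts and was not used. Counts were tested in R 4.3.3 with edgeR 4.0.16: filterByExpr, scaling by TMM (trimmed mean of M-values), robust quasi-likelihood test, group alone, two-sided, Benjamini-Hochberg over all genes tested, called at adjusted p under 0.05 (common biological coefficient of variation 3.86%). The test was checked on simulated counts. Log2 ratios used a prior count of 2. Alternatives were other scalings (DESeq2 size factors, upper quartile, totals), filters (none; 1 CPM in 4 libraries), DESeq2 1.42.0, limma 3.58.1 voom, the replicate number as a block, dispersions without the robust option, a non-germ marker covariate, each library left out, thresholds of 0.01 and 0.10, a fold of 1.2 and, added after seeing the data, protein-coding genes alone. All 35 genes are accounted for. By rule, values per library are given for every called gene, the sensors, Xbp1 and Ddit3. Genes near a call, and the homologs Calr3 and Pdilt, were named after their values were seen. The 35 genes and the lists were chosen with earlier results of these data known.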

Additional observations from a re-analysis of the deposited data

Results flagged for a closer look

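In each group of 4 libraries, the lowest and the highest level of each of the 35 genes were compared with the others by Dixon's ratio, which chance alone passes in about 1 in 20 groups. Of 70 groups, 2 held a library that stood apart. Calr in KO replicate 3 was at 519.3 CPM, with the other KO libraries at 492.7 to 496.9; it lay on the side of the WT libraries, and Calr was still called without it. Selenok in WT replicate 1 was at 35.87 CPM, with the other WT libraries at 39.68 to 40.42, so that this library fell within the KO range.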

How the results depend on the processing

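Of the 35 genes, 6 were called, and the count was 4 to 7 when each library was left out in turn. It was 1 (Clgn) with the non-germ marker covariate and 1 against a fold of 1.2. The other alternatives gave 4 to 7, all lower; without WT replicate 2 Pdia4 was called higher. Of 22 alternatives Clgn kept its call in 22, Hspa5, Calr and Atf4 in 20, Ppp1r15a in 15 and Creld2 in 11, and none of the 6 changed direction. Of the 115 other pathway genes tested, 1 was called; the count was 1 to 3 with each library left out, 2 with DESeq2 size factors or protein-coding genes alone, 4 with library totals or at adjusted p under 0.10, and 0 against a fold of 1.2. Of all genes 1193 were called, 898 to 1040 with each library left out, 729 with DESeq2, 181 with the covariate, 678 at adjusted p under 0.01 and 134 against a fold of 1.2. The Clgn to Canx ratio differed by -1.16 to -1.02 on the log2 scale with each library left out. The cause of these changes was not tested.

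No pairing of the libraries by replicate number was detected: deviations of same-numbered libraries correlated at 0.025, 0.128, 0.052 and -0.018, and 0 of 4 WT libraries correlated best with the KO library of their own number. Such low correlations cannot exclude a pairing, for example by litter. With the replicate number as a block 6 of the 35 genes were called, the same 6, with 2 of the other pathway genes and 1249 of all genes. Depth limits Trib3, Chac1 and Sdf2l1, with 7 to 40 counts per library.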
